A study of Homo sapiens with 6 samples.

Results

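The genes described here are the receptors and enzymes of sphingosine-1-phosphate (S1P). The list holds 9 genes: the receptors S1PR1 to S1PR5, the kinases SPHK1 and SPHK2, the lyase SGPL1 and the phosphatase SGPP1. Every probe set that the platform annotation pairs with 1 of them alone was taken, which gave 15 of 54613 probe sets for 8 of the 9 genes, among 19775 genes measured. SPHK2 had no probe set in the annotation used and was not analysed here. The family was chosen by the difference of S1PR3 between the groups on these same arrays, a rise that was already known, so the differences of its members, and the calls set beside them, are a description and support nothing about the family. RNA came from LNCaP, an established androgen-responsive human prostate cancer line that was grown from a metastasis. All cells had received siRNA, either to PCARNEQ, a non-coding RNA (siPCARNEQ, 3 arrays), or to EGFP, a jellyfish protein used as a control target (siEGFP, 3 arrays). Arrays are named by their replicate number, and the labels name neither a time after transfection nor separate cultures, so the errors cover the variation from array to array alone, which may be technical.

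S1P is a signalling lipid made inside the cell when a sphingosine kinase phosphorylates sphingosine, a breakdown product of ceramide. Transporters carry it out of the cell, where it acts on a family of G protein-coupled receptors that steer cell migration, survival, vessel tone and the exit of lymphocytes from lymphoid organs. Inside the cell SGPP1 returns S1P to sphingosine, and SGPL1 splits it irreversibly into a fatty aldehyde and phosphoethanolamine, the step by which sphingoid bases leave the pathway.

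Values are probe-set intensities on the log2 scale, and the median of all probe sets was 7.03. A probe set below that median was not shown to be above background. Levels are not compared between probe sets, since each binds its target with its own efficiency. In these RNA samples less RNA per cell and fewer cells carrying a transcript cannot be told apart. Array 1 stood apart from arrays 2 and 3 in both groups. The SD of the log2 difference over all probe sets was 0.37 between siPCARNEQ array 1 and each of the other siPCARNEQ arrays, 0.23 to 0.24 between siEGFP array 1 and its fellows, and 0.13 to 0.14 between arrays 2 and 3 of a group. ACTB control probe sets at the 3' and 5' ends of the transcript, which gauge RNA integrity, differed by 1.84 on the log2 scale on siPCARNEQ array 1 and 0.63 to 0.78 on the other 5 arrays (2-sided exact permutation p = 0.5 between groups, and this design cannot go below 0.1). The same difference for GAPDH was 0.26 on siPCARNEQ array 1 and -0.14 to -0.03 elsewhere.

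Luminal prostate markers were bright on every array. KLK3, which encodes prostate-specific antigen, lay between 13.51 and 14.12, and 6 of the 8 measured luminal markers rose in siPCARNEQ cells while 0 fell (0 with limma's unadjusted p below 0.05). Of the endothelial cells, which use S1PR1, the defining marker CDH5 lay between 4.62 and 5.07, and PTPRC of immune cells between 5.03 and 5.12. The endothelial markers PECAM1 and TEK lay above the array median on every array, at 7.59 to 7.91 and 7.20 to 7.48. CLDN5 lay around it, at 6.91 to 7.24, and KDR below it, at 4.66 to 4.96. The summed intensity of 6 endothelial markers was 655 to 708 in siPCARNEQ and 650 to 756 in siEGFP, and 0 of the 6 changed in their brightest probe sets (0 with limma's unadjusted p below 0.05). The other probe set of VWF, the von Willebrand factor of endothelial cells, rose by 0.55 (limma adjusted p = 0.0429 over all probe sets), while its brightest differed by -0.09. The brightest had means of 6.97 in siPCARNEQ and 7.06 in siEGFP, near the array median. The probe set that rose was dimmer over the 6 arrays and was not shown to be above background. The summed intensity of 5 immune markers was 3065 to 5428 against 1849 to 2452. In that list LCP1, an actin-bundling protein, was the 1 marker that rose. It lay at 11.35, 12.24 and 12.28 in siPCARNEQ and at 10.45, 10.96 and 10.97 in siEGFP, and made up most of that sum. The other immune markers lay at 5.03 to 7.55 on all arrays. Among fibroblast and smooth muscle markers, whose summed intensity was 2135 to 2646 against 1397 to 1430, COL1A1 rose and ACTG2 fell, the latter at a level below the array median in both groups. Among 5 basal markers, with a summed intensity of 1054 to 1262 against 944 to 1114, KRT14 was called as a rise, at 6.19 to 6.42 against 5.16 to 5.36, so it was not shown to be above background in either group. The part of these genes in the results below was not tested.

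In siPCARNEQ cells the S1P receptor S1PR3 was higher by 3.08 on the log2 scale in its brighter probe set (SE 0.44, 8.45-fold), the S1P phosphatase SGPP1 was lower by more than 4-fold in both of its probe sets, and the S1P lyase SGPL1 was higher in 2 of its 3 probe sets. The probe sets of S1PR1, S1PR2, S1PR4 and S1PR5 differed by -0.25 to 0.22, and that of SPHK1 by -0.10. The fit across all probe sets (limma, Benjamini-Hochberg adjusted p below 0.05) called 5 of the 15 member probe sets, against 18.5% of all probe sets. Of the 5, 3 rose (9.92% of all probe sets did) and 2 fell (8.61%), in S1PR3, SGPL1 and SGPP1. The groups did not overlap in 8 of the 15, against 37.7% of all probe sets, and 4 of the 15 differed at least 2-fold, against 3.57%. These counts are a description, because S1PR3 chose the family. The median difference was -0.0019 over the member probe sets and -0.01 over all probe sets.

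**Figure D1:**
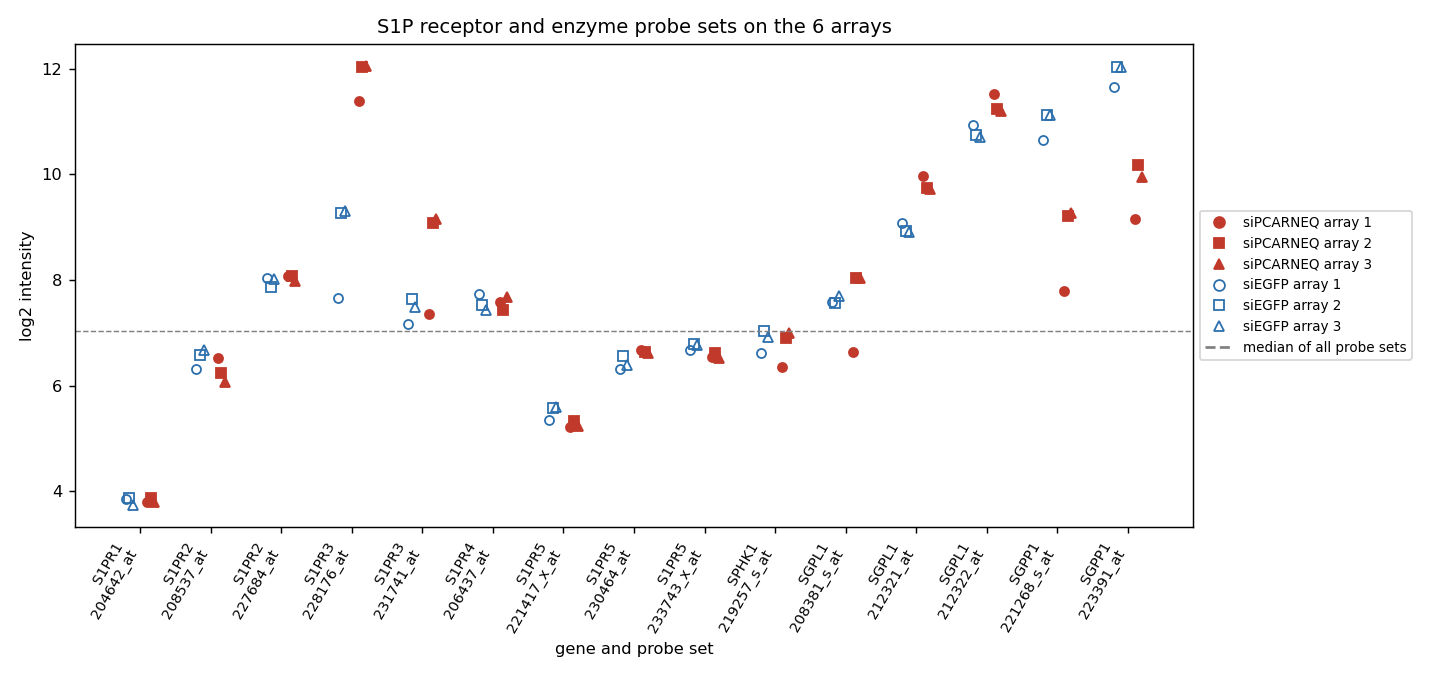
Log2 intensity (vertical axis) of the 15 member probe sets (horizontal axis) on each of the 6 arrays, with filled red symbols for siPCARNEQ, open blue symbols for siEGFP and 1 symbol shape per array number. The dashed line is the median of all probe sets, 7.03. The siPCARNEQ arrays lie above the siEGFP arrays for S1PR3 228176_at and SGPL1 212321_at and 212322_at, and below them for both SGPP1 probe sets.

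The promoters of S1PR3 and SGPL1, the members with a called rise, are shown because their RNA levels moved in the same direction. RefSeq promoter windows (GRCh38.p14) were found for 8 of the 9 members, 13 windows in all, and SGPP1 had no entry. The 250 bases before the first listed start of S1PR3 (chr9:88990613-88990862, plus strand) and before that of SGPL1 (chr10:70815698-70815947, plus strand) read as follows, with GGGCGG or its reverse complement in capitals.
S1PR3: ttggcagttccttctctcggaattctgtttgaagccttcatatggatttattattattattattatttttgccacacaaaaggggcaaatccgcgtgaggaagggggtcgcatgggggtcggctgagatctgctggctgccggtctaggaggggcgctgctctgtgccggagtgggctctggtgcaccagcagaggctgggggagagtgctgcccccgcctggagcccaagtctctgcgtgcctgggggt
SGPL1: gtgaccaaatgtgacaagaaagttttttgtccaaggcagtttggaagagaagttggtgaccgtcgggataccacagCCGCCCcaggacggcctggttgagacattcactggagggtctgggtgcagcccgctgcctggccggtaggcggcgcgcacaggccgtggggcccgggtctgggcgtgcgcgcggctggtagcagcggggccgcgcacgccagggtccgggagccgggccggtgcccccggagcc
Short motifs were searched on both strands, and overlapping matches were counted separately. The core of the GC box, GGGCGG, was in 8 of the 13 member windows and in 42.6% of the 35116 windows of all genes. It was absent from the S1PR3 window shown, had 8 matches before the second listed start of S1PR3, of which the pair farthest from that start overlap, and had 1 match, 174 bases before the start, in SGPL1. The E-box letters CACGTG were in 0 of the 13 member windows, against 6.34% of all windows. The TATA box letters TATAAA were in 0 of the 13 too, against 10.7% of all windows. The letters TGTTCT, found in androgen response elements, were in 1, a window of SPHK2, against 12.4%. The S1PR3 window shown held 10 CG pairs, where 52.2% of all windows hold at least as many, and the SGPL1 window held 23, where 25.8% do. A match of letters is a description of the window and not a bound site.

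S1PR3 couples to Gi, Gq and G12/13 proteins and is the receptor through which S1P raises calcium and activates RHOA in many cell types. Its probe set 228176_at lay at 11.40, 12.03 and 12.05 on siPCARNEQ arrays 1 to 3 and at 7.67, 9.28 and 9.30 on siEGFP arrays 1 to 3. All 3 siPCARNEQ arrays were above all 3 siEGFP arrays, and array 1 was the lowest of its group in both. Group means were 11.83 ± 0.37 and 8.75 ± 0.94 (SD, n = 3). The difference was 3.73 between the arrays 1, 2.76 between the arrays 2 and 2.75 between the arrays 3. S1PR3 ranked number 1 by rise among the 19775 genes when each was represented by its brightest probe set, which is the value that brought the family to attention. With arrays 2 and 3 of each group averaged and counted as 1 replicate, the difference was 3.24 and was no longer called.

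The other probe set of S1PR3, 231741_at, gave a smaller difference. It lay at 7.36, 9.08 and 9.16 in siPCARNEQ and at 7.16, 7.65 and 7.49 in siEGFP. Arrays 2 and 3 of siPCARNEQ were above every siEGFP array, while siPCARNEQ array 1 lay among the siEGFP arrays, so the groups overlapped. The difference of 1.10 (SE 0.46) was not called. It was called with the replicate number as a block (1.10), without siPCARNEQ array 1 (1.69) and without array 1 of both groups (1.55). The low value fell on the array with the highest ACTB 3' to 5' difference, and the part of RNA integrity in it was not tested. The probe sets of S1PR3 thus had the same sign but differed in size, at 0.20 against 3.73 in array 1 and at 1.55 against 2.75 in the mean of arrays 2 and 3.

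The other 4 receptors were measured by 7 probe sets, 0 of them called (3, all of S1PR5, had a limma unadjusted p below 0.05, given as a description). S1PR1, the Gi-coupled receptor that guides endothelial cells and lymphocytes, had 1 probe set, far below the array median, at 3.80 to 3.87 in siPCARNEQ and 3.75 to 3.87 in siEGFP. Its difference was -0.0019 (SE 0.07), at a level not shown to be above background.

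S1PR2, a receptor known for coupling to G12/13 and for restraining migration, had probe set 227684_at at 8.08, 8.07 and 7.99 against 8.05, 7.87 and 8.01, with a difference of 0.07 (SE 0.08). The groups overlapped. Its second probe set, 208537_at, lay below the array median in both groups, at 6.53, 6.23 and 6.07 against 6.32, 6.58 and 6.67. Its difference was -0.25 (SE 0.14), with array 1 pointing up (0.20) and arrays 2 and 3 pointing down (-0.35 and -0.61). Without array 1 of both groups it was called at -0.48. The S1PR2 probe sets therefore differed in sign.

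S1PR4, a receptor known mainly from lymphoid cells, lay at 7.58, 7.44 and 7.68 against 7.73, 7.52 and 7.44, with a difference of 0.0029 (SE 0.11). The groups overlapped. S1PR5, known from oligodendrocytes and natural killer cells, had 3 probe sets, all below the array median and none with overlapping groups. Probe set 230464_at was higher by 0.22 (SE 0.09), and the probe sets 221417_x_at and 233743_x_at, whose suffix marks possible matches to other transcripts, were lower by 0.24 (SE 0.09) and 0.18 (SE 0.07). Of these differences none was called, and 221417_x_at was called without siEGFP array 1 (-0.32) and without array 1 of both groups (-0.31). The S1PR5 probe sets thus moved both ways by small amounts at low signal.

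**Figure D2:**
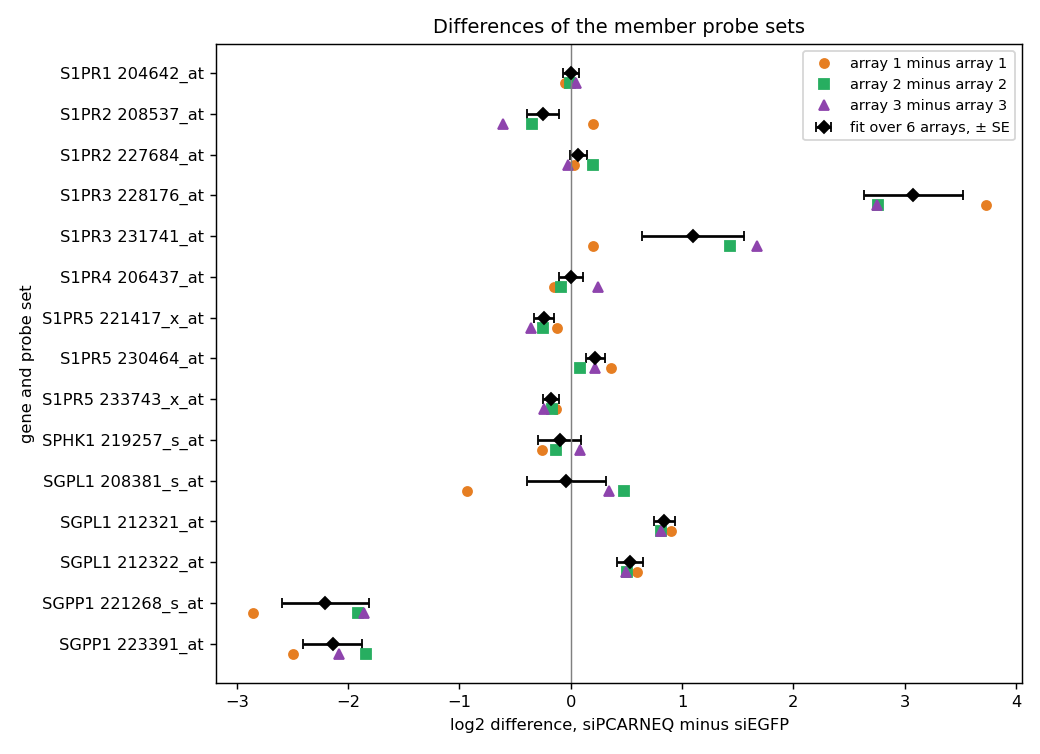
Log2 difference, siPCARNEQ minus siEGFP (horizontal axis), of the 15 member probe sets (vertical axis). Black diamonds with bars are the fit over 6 arrays with its standard error, and coloured symbols are the differences between arrays of the same number. S1PR3 228176_at stands at 3.08, SGPP1 at -2.21 and -2.14, and the arrays 1 lie far from the others for S1PR3 231741_at (0.20) and SGPL1 208381_s_at (-0.94).

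SPHK1, the growth-factor-responsive kinase that makes S1P in the cytosol, had 1 probe set, whose mean lay below the array median in both groups and which was thus not shown to be above background, at 6.35, 6.91 and 7.003 in siPCARNEQ and at 6.61, 7.04 and 6.92 in siEGFP. The groups overlapped, array 1 was the lowest of each group, and the difference was -0.10 (SE 0.19).

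SGPP1, the phosphatase of the endoplasmic reticulum that turns S1P back into sphingosine, was lower in siPCARNEQ in both of its probe sets. Probe set 223391_at lay at 9.15, 10.19 and 9.96 in siPCARNEQ and at 11.65, 12.03 and 12.04 in siEGFP. Every siPCARNEQ array was below every siEGFP array, and array 1 was the lowest in each group. It fell by 2.14 (SE 0.26), which is 4.41-fold, and differed by -2.50, -1.84 and -2.08 between arrays of the same number. Probe set 221268_s_at, whose suffix marks a possible match to further transcripts, lay at 7.79, 9.21 and 9.28 against 10.65, 11.13 and 11.13, again without overlap. It fell by 2.21 (SE 0.39), which is 4.62-fold. With arrays 2 and 3 averaged as 1 replicate, 223391_at was still called and 221268_s_at was not, at -2.37. By its brighter probe set SGPP1 ranked number 36 by fall among the 19775 genes.

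SGPL1, the S1P lyase, was measured by 3 probe sets. Probe set 212321_at lay at 9.97, 9.75 and 9.72 in siPCARNEQ and at 9.08, 8.93 and 8.91 in siEGFP. All siPCARNEQ arrays were higher, and the difference was nearly the same in each array number, at 0.90, 0.81 and 0.81. It rose by 0.84 (SE 0.10), which is 1.79-fold. Probe set 212322_at, the brightest of the gene, lay at 11.53, 11.25 and 11.20 against 10.94, 10.74 and 10.70, and rose by 0.53 (SE 0.12), which is 1.44-fold. Its groups did not overlap either, but it was not called without siEGFP array 2 (0.50), without siEGFP array 3 (0.48) or with arrays 2 and 3 averaged (0.55).

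The remaining probe set of SGPL1, 208381_s_at, lay at 6.64, 8.04 and 8.03 in siPCARNEQ and at 7.58, 7.56 and 7.69 in siEGFP. Arrays 2 and 3 of siPCARNEQ were above all siEGFP arrays and array 1 was below all of them, which gave a difference of -0.04 (SE 0.36). Without siPCARNEQ array 1 it was 0.43 and was called as a rise, and without array 1 of both groups it was 0.41 and called. The number of member probe sets called was 7 without siPCARNEQ array 1 (5 rose and 2 fell), 9 without array 1 of both groups (5 rose and 4 fell) and 2 with arrays 2 and 3 averaged (1 rose and 1 fell). In the same settings 24.2%, 31.3% and 4.15% of all probe sets were called.

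S1PR3's pattern over the arrays was set beside that of every other gene. The 5 genes nearest to its brighter probe set, by Euclidean distance between values centred on each gene's mean over the 6 arrays, were THRSP (0.709 log2 units), PLA2G2A (0.794), KRT19 (1.001), SEMA3C (1.04) and CTNNA2 (1.15), among 19775 genes. THRSP is a regulator of lipid synthesis, PLA2G2A a secreted phospholipase, KRT19 a keratin, SEMA3C a semaphorin and CTNNA2 an alpha-catenin. CTNNA2 lay at 8.77, 9.60 and 9.59 in siPCARNEQ and at 6.43, 7.37 and 7.38 in siEGFP. PLA2G2A lay at 11.67, 12.81 and 12.78 against 8.26, 10.50 and 10.45. All 5 were lowest on array 1 within each group, as S1PR3 was, and all 5 were higher on every siPCARNEQ array. Nearness was measured on the same 6 arrays and describes them only.

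**Figure D3:**
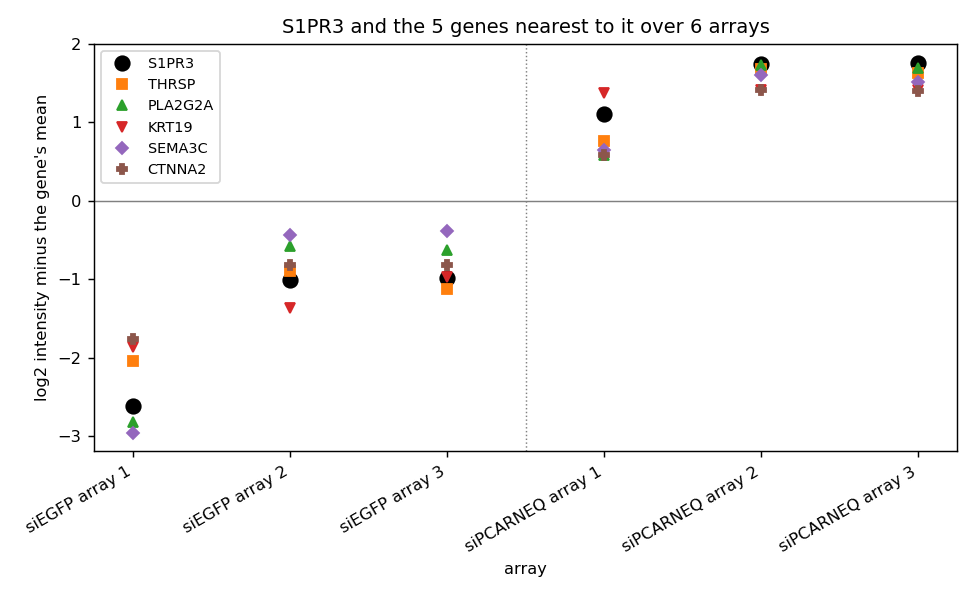
Log2 intensity minus the gene's own mean over the 6 arrays (vertical axis) on each array (horizontal axis) for S1PR3 228176_at, in black, and the 5 genes nearest to it. Each gene is lowest on siEGFP array 1, and on siPCARNEQ array 1 each is lower than on siPCARNEQ arrays 2 and 3.

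Genes that surround S1P in metabolism and signalling were taken from 11 lists of 106 genes, of which 93 had a single-gene probe set. The limma fit over all genes, at a Benjamini-Hochberg adjusted p below 0.05, found that 23 of the 93 rose, 17 fell and 53 did not pass. That is 43% called, against 27.5% of all 19775 genes (15.2% rose and 12.3% fell), and the median difference was 0.05 against -0.01 over all genes. With genes below the median of all genes left out, 40 of 68 were called (58.8%, against 48.7% of all genes kept). The lists were made with earlier results of these data known, so these shares are a description. Each gene is represented below by its brightest probe set. With arrays 2 and 3 averaged as 1 replicate 16 of the 93 were called (17.2%, against 11.3% of all genes), and 62 were called without array 1 of both groups (66.7%, against 41.6%). The count over all genes thus moved in the same direction. Of the genes named below, ACER2, ACER3, ACTA2, ALDH3A2, CERT1, FHL2, GNA12, HDAC1, PLPP3, PSAP, RGS1, RGS3, RGS16, SPTLC1, SPTLC2, SPTSSA and TERT did not pass with that averaging (limma adjusted p = 0.0565 to 0.218).

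**Figure D4:**
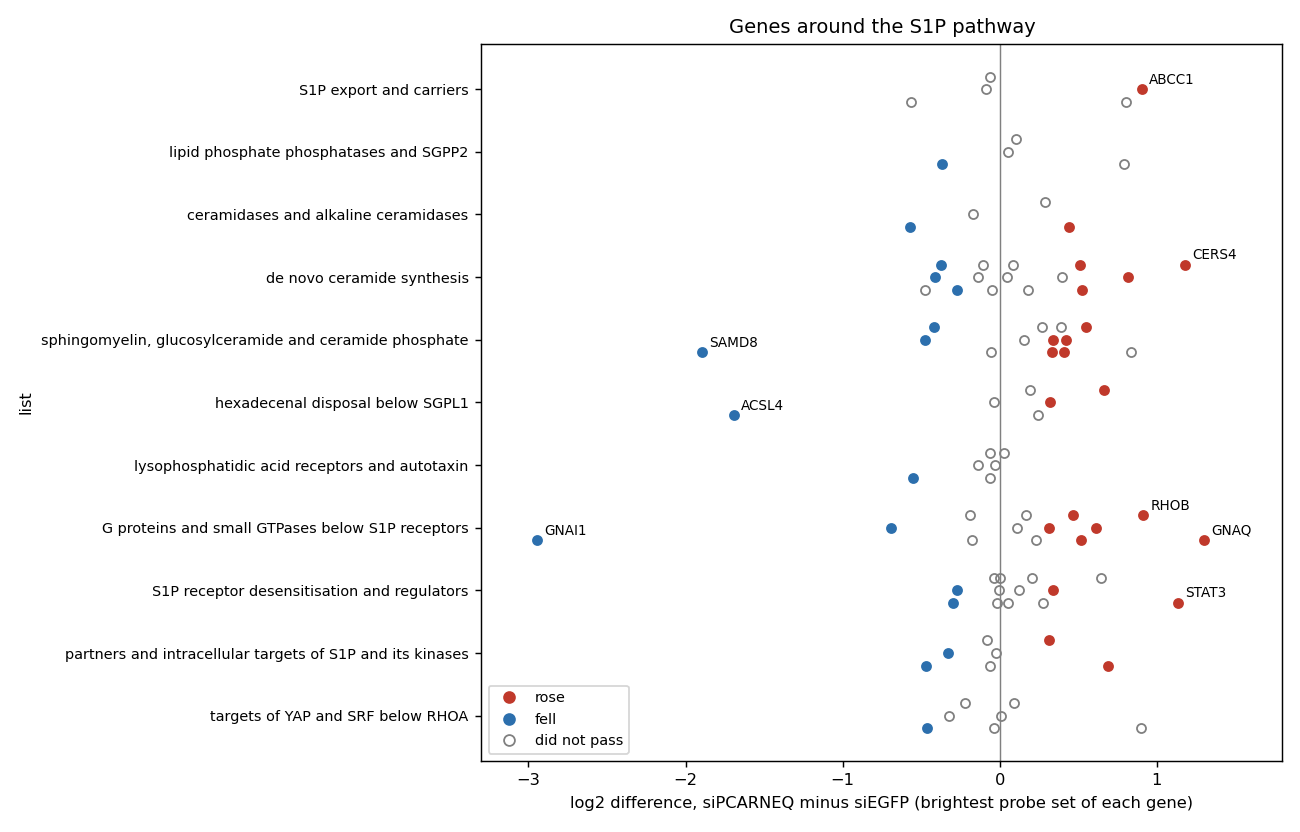
Log2 difference, siPCARNEQ minus siEGFP (horizontal axis), of 93 genes around the S1P pathway by list (vertical axis), 1 point per gene at its brightest probe set. Red points rose, blue points fell and open grey points did not pass (limma, adjusted p below 0.05), and called genes with a difference of at least 0.9 in size carry their symbol. GNAI1 (-2.94) is the point farthest from 0.

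Among carriers of S1P, 1 of 5 measured genes rose and 0 fell (1, ABCG2, was lower with a limma unadjusted p below 0.05). ABCC1, a multidrug transporter that can export S1P, lay at 12.23, 12.19 and 12.22 in siPCARNEQ and at 11.31, 11.26 and 11.36 in siEGFP. It rose by 0.91 (SE 0.06, limma adjusted p = 0.000136), without overlap, and its second probe set rose by 0.64. With the replicate number as a block, and also without siEGFP array 1 or without array 1 of both groups, 2 of the 5 rose and 1 fell. In these settings 34.6%, 24% and 41.6% of all genes were called. Of the 4 lipid phosphate phosphatases measured, which include SGPP2, 1 fell and 0 rose (1, PLPP2, was higher with a limma unadjusted p below 0.05). PLPP3, which removes the phosphate from S1P at the cell surface, fell by 0.37 (SE 0.11, limma adjusted p = 0.0388), and did not pass when any single array other than siEGFP array 2 was left out (adjusted p = 0.0562 to 0.0933). Its difference was -0.22 without array 1 of both groups, and its other probe sets differed by -0.54 and -0.60. In the fit over all probe sets no probe set of PLPP3 was called (limma adjusted p = 0.0601 to 0.078). With the block 1 of these 4 phosphatases rose and 1 fell, where 34.6% of all genes were called.

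Ceramidases release the sphingosine that the kinases use. Of 4 measured, ACER2 fell by 0.57 (SE 0.09, limma adjusted p = 0.00374) and ACER3 rose by 0.44 (SE 0.13, adjusted p = 0.0447), both encoding alkaline ceramidases. ACER3 did not pass without siPCARNEQ array 2 or without any one of the siEGFP arrays (adjusted p = 0.0506 to 0.124), and its rise was 0.29 without siPCARNEQ array 1 and 0.25 without array 1 of both groups. Of its other probe sets, 227776_at and 222687_s_at rose by 0.48 and 0.46, and the rest differed by 0.09 to 0.40 and did not pass.

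In ceramide synthesis 4 of 15 measured genes rose, 3 fell and 8 did not pass. KDSR and ORMDL1, named here after their values were seen, did not pass by their brightest probe sets. KDSR fell by 1.11 and 1.04 in other probe sets and differed by -0.04 in the remaining one. ORMDL1 fell by 0.94 in 227548_at and differed by 0.27 in 228801_at, which was not called. The ceramide synthases CERS4 and CERS6 rose by 1.18 (SE 0.16, limma adjusted p = 0.0017) and 0.81 (SE 0.08, adjusted p = 0.000579). CERS4 lay at 9.25, 8.67 and 8.66 in siPCARNEQ and at 7.76, 7.63 and 7.65 in siEGFP, so every siPCARNEQ array was higher. CERS6 rose in 2 of its 4 probe sets. SPTLC1 and SPTLC2, subunits of serine palmitoyltransferase, the first enzyme of the pathway, fell in their brightest probe sets by 0.38 (SE 0.09) and 0.41 (SE 0.07, adjusted p = 0.00503). Its small subunits SPTSSA and SPTSSB are named here after their values were seen. SPTSSA fell by 0.27 (SE 0.08, adjusted p = 0.0495) and did not pass when any single array other than siPCARNEQ array 2 was left out (adjusted p = 0.051 to 0.165). The other probe set of SPTSSA differed by 0.15, the opposite sign. Over all probe sets neither was called (limma adjusted p = 0.0773 and 0.181). SPTSSB, at a level below the array median, had a difference of 0.18 (SE 0.13, adjusted p = 0.347) and was called as a rise without siPCARNEQ array 1 (0.31) and without array 1 of both groups (0.27). SPTLC1 did not pass without siEGFP array 2 or array 3 (adjusted p = 0.0603 and 0.0631). SPTLC2 had probe sets that disagreed, and 225095_at rose by 0.61.

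Of 13 genes listed around sphingomyelin, glucosylceramide and ceramide phosphate, not all of them converting enzymes, 5 rose, 3 fell and 5 did not pass. SAMD8, which makes ceramide phosphoethanolamine, fell by 1.89 (SE 0.08, limma adjusted p = 2.82e-05). It lay at 7.19, 7.40 and 7.34 in siPCARNEQ and at 9.15, 9.23 and 9.23 in siEGFP, far apart on every array. CERT1, the ceramide transfer protein, fell by 0.48 (SE 0.07) with similar values in its 4 probe sets. SGMS1, a sphingomyelin synthase, rose by 0.55 (SE 0.09) and PSAP, the precursor of the saposins, by 0.34 (SE 0.06), with 0.10 in its other probe set. Of 6 genes listed around the fate of the aldehyde made by SGPL1, HACD2 rose by 0.66 (SE 0.08). Whether HACD2 takes part in that step was not tested. ALDH3A2, which oxidises that aldehyde, rose by 0.32 (SE 0.10, adjusted p = 0.0439), and the acyl-CoA ligase ACSL4 fell by 1.69 (SE 0.14). ALDH3A2 did not pass when any single array other than siPCARNEQ array 1 was left out (adjusted p = 0.0589 to 0.132), while its other probe sets rose by 0.79 and 0.59. The fall of ACSL4 was seen in 1 of its 3 probe sets, and the others differed by -0.13 and -0.09.

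S1P receptors signal through Gi, Gq and G12/13 proteins and, below them, small GTPases. Of 13 G proteins and small GTPases, 6 rose, 2 fell and 5 did not pass. GNAI1, a Gi subunit, lay at 6.13, 7.44 and 7.17 in siPCARNEQ and at 9.99, 9.78 and 9.80 in siEGFP. It fell by 2.94 (SE 0.31, limma adjusted p = 0.000575), and its fall was known when the list was made. GNAI3 fell by 0.69 (SE 0.12, adjusted p = 0.00423), and by 1.16 in its probe set 201181_at. GNAI2 had a difference of 0.23 (SE 0.18, adjusted p = 0.396) that passed with the replicate number as a block (adjusted p = 0.0337).

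GNAQ, a Gq subunit, lay at 11.56, 10.78 and 10.91 in siPCARNEQ and at 10.02, 9.64 and 9.68 in siEGFP, and rose by 1.30 (SE 0.21, limma adjusted p = 0.00343). All siPCARNEQ arrays were higher, and 4 of its 5 probe sets rose. GNA12 rose by 0.52 (SE 0.08, adjusted p = 0.00376) and GNA13 had a difference of -0.18 (SE 0.07, adjusted p = 0.0904). Of the small GTPases downstream, RHOB and RHOC rose by 0.91 (SE 0.11) and 0.61 (SE 0.08). The rise of RHOB was seen in its brightest probe set, while the other 4 differed by -0.10 to 0.42 and did not pass.

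Of 6 measured genes for lysophosphatidic acid, a related lipid with its own receptors, LPAR3 fell by 0.55 (SE 0.07, limma adjusted p = 0.001). The others did not pass by their brightest probe sets. LPAR2, named here after its values were seen, fell by 0.30 in 206722_s_at (limma adjusted p = 0.0311 over all probe sets). Of 13 genes that desensitise or regulate S1P receptors, 2 rose and 2 fell. STAT3, a transcription factor that takes part in S1PR1 signalling, rose by 1.13 (SE 0.13, adjusted p = 0.000818), from 12.11, 11.91 and 11.94 in siEGFP to 13.40, 12.97 and 12.99 in siPCARNEQ. RGS3, RGS1 and RGS16 are regulators that switch G proteins off. RGS3 rose by 0.34 (SE 0.06) in its brightest probe set while 220300_at fell by 0.81. RGS1 and RGS16 were called as falls of 0.27 (SE 0.08) and 0.30 (SE 0.08), but RGS1 lay far below the array median, at 4.62 to 5.03 on all arrays, and RGS16 lay near it, at 6.87 to 7.31. The signal of RGS1 is therefore not known to exceed background. With genes below the median of all genes left out, neither was tested, and 3 of the remaining 8 genes rose and 0 fell. RGS1 did not pass without siPCARNEQ array 3 or any one of the siEGFP arrays (adjusted p = 0.074 to 0.127), nor RGS16 without any array but siPCARNEQ array 1 (adjusted p = 0.08 to 0.109). With the block 5 of these 13 rose and 2 fell, and without array 1 of both groups 5 rose and 3 fell. In these settings 34.6% and 41.6% of all genes were called.

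Of 7 partners and intracellular targets of S1P and its kinases, 2 rose and 2 fell. CIB1, a calcium-binding protein that brings SPHK1 to the membrane, rose by 0.69 (SE 0.07, limma adjusted p = 0.000519), and FHL2, a protein that binds SPHK1, was called as a fall of 0.47 (SE 0.10) at 5.36 to 6.06 on all arrays, not shown to be above background. HDAC1, a histone deacetylase, rose by 0.31 (SE 0.07) and did not pass without siEGFP array 2 or 3 (adjusted p = 0.0809 and 0.0662). TERT, the telomerase reverse transcriptase, fell by 0.33 (SE 0.08) and did not pass without siPCARNEQ array 2 or 3 or siEGFP array 2 (adjusted p = 0.0546 to 0.0703). HDAC2 and EEF1A1, named here after their values were seen, did not pass by their brightest probe sets. HDAC2 fell by 0.42 in 242141_at. EEF1A1 rose by 0.57 in 227708_at and fell by 0.31 in 1557120_at. With genes below the median of all genes left out, FHL2 and TERT were not tested, and 2 of the remaining 5 genes rose and 0 fell. Without siEGFP array 2, 1 of these 7 rose and 1 fell, where 18.7% of all genes were called. Of 7 targets of YAP and SRF, factors that act below RHOA, ACTA2, a smooth muscle actin, fell by 0.46 (SE 0.09, adjusted p = 0.00713) and 0 rose (1, AMOTL2, was higher with a limma unadjusted p below 0.05). The other probe sets of ACTA2 differed by -0.03 and -0.06. TAGLN, named here after its values were seen, did not pass by its brightest probe set (-0.22). It rose by 0.50 in 205547_s_at (limma adjusted p = 0.0252 over all probe sets), and its remaining probe set differed by 0.14 and was not called. With the block 1 of these 7 targets rose and 1 fell, and without siPCARNEQ array 3, 2 fell. In these settings 34.6% and 21.6% of all genes were called.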

How the data were processed

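Total RNA from LNCaP cells was measured on 6 single-colour Affymetrix arrays, 3 per group. The authors deposited linear intensity per probe set from RMA (background correction, quantile normalization and probe summary), per the submitters' processing notes. The RMA version and the build are not stated in the sources used here. Once sorted, the log2 values of all arrays matched to within 0.0049, so differences in overall signal are out of reach. Log2 was taken with no pseudocount, and 62 control probe sets were left out of 54675. The comparison used limma 3.58.1 in R 4.3.3 (lmFit, eBayes), 2-sided, without covariates, adjusted by Benjamini-Hochberg over the 54613 probe sets, or over the 19775 genes, at a threshold of 0.05. Each gene stands by its brightest single-gene probe set. The fit was tested on simulated data. Figures used matplotlib 3.10.9.

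The members and lists were chosen with earlier results of these data known. All member probe sets are shown. From each list up to 2 rises and 2 falls with the smallest p are named, with 6 G protein genes whatever their value, and others are marked. List genes with no single-gene probe set were not analysed here, nor was the level of PCARNEQ. Leaving out array 1 of both groups was chosen after seeing the data, as were the remarks on other probe sets of a gene.

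Both groups carry replicate numbers 1 to 3. Deviations from group means correlated at 0.47, 0.30 and 0.34 between arrays of the same number, at 0.37 between siPCARNEQ array 2 and siEGFP array 3, at 0.24 between siPCARNEQ array 3 and siEGFP array 2, and at -0.44 to -0.31 between array 1 and the others. The values thus set array 1 apart from arrays 2 and 3 and do not separate number 2 from number 3, and the labels state no shared day. The main fit has no block, and the fit with the replicate number as a block is given as an alternative.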

Additional observations from a re-analysis of the deposited data

How the results depend on the processing

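Settings tried were the replicate number as a block, each array left out, features below the median level left out (9 of the 15 member probe sets stay), log2(intensity + 16), further quantile normalization, arrays 2 and 3 averaged as 1 replicate, an intensity trend in eBayes, array 1 of both groups left out and, for genes, other choices of probe set. Among all probe sets 10122 changed, against 5829 to 13232 with an array left out, 2264 with arrays 2 and 3 averaged and 17104 without array 1 of both groups. Member probe sets called numbered 5, against 2 with arrays 2 and 3 averaged, 9 without array 1 of both groups, 6 with the replicate block and 4 to 7 with an array left out. Pathway genes changed numbered 40, against 16, 62, 54 and 30 to 45 in the same settings. With the block 22.9% of all probe sets and 34.6% of all genes were called, against 18.5% and 27.5% without it. Beside the calls given in the report, the block made no difference to a named gene or member probe set. KDSR, ORMDL1, TAGLN, LPAR2, HDAC2 and EEF1A1, named only for their other probe sets, were not followed gene by gene through these settings. Nor were ABCG2, PLPP2 and AMOTL2, named only for their unadjusted p. With arrays 2 and 3 averaged, 4 samples carry each fit.

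Differences near 0 changed sign. S1PR1 went from -0.040 to 0.022 with an array left out and was 0.022 without array 1 of both groups. S1PR4 went from -0.059 to 0.087 and was -0.036 with arrays 2 and 3 averaged. SPHK1 went from -0.22 to 0.10. SGPL1 208381_s_at went from -0.27 to 0.43 and was 0.41 without array 1 of both groups. Averaged over all probe sets of a gene, RGS1 was 0.029 and RGS3 -0.22. Without probe sets ending in _x_at or _s_at, RGS1 was 0.23, RGS16 0.16 and SPTLC2 0.61, each from another probe set of the gene. The number of arrays limits the precision, and probe sets below the array median may lie at background.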
